A study of Mus musculus with 11 samples.

Results

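The 10 genes Pdgfra, Pdgfrb, Dpp4, Pi16, Acta2, Des, Msln, Upk3b, Wt1 and Lrrn4 are markers of fibroblasts and their progenitors, of stellate and contractile cells, and of mesothelium. They were found by name, as the entries of the deposited count tables that carry these symbols. All 10 were found in both tables, 10 of 54532 genes in the pancreas and 10 of 46078 genes in adipose tissue. RNA sequencing of the pancreas covered 2 control samples and 3 samples with obesity-related alcohol-induced acute pancreatitis (OA-AP), and that of epididymal adipose tissue covered 3 of each. All samples came from wild type C57BL/6 mice aged 16 weeks, which the study's methods give as male C57BL/6J. Control mice were fed chow with 10 kcal% fat and were injected with saline. OA-AP mice were fed a high-fat diet with 60 kcal% fat for 12 weeks and were then given ethanol at 2 g/kg intraperitoneally in 2 injections 1 h apart. Tissue was collected 12 h after the first injection, and no sample analysed here had received CQCQD, the herbal decoction of the study. Diet, ethanol and pancreatitis differed together between the groups and cannot be told apart.

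Platelet-derived growth factor (PDGF) receptors are tyrosine kinases through which fibroblasts, pericytes and stellate cells receive growth signals. In the sheath around vessels and in the outer connective tissue layer of fat, fibroblasts that carry Dpp4 and Pi16 act as progenitors of more committed fibroblasts and preadipocytes, while pancreatic stellate cells carry desmin and gain smooth muscle actin when they are activated. Mesothelium is the flat epithelium that covers the pancreas and visceral fat, and Msln, Upk3b, Wt1 and Lrrn4 are among its markers.

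The pancreas libraries held 14716716 and 14380578 counts on genes in the control group and 14465769, 14188832 and 17238919 in the OA-AP group. The adipose libraries held 25840279, 22576100 and 27928097 counts in the control group and 20825177, 21404197 and 20911383 in the OA-AP group. Of these, the 10 genes together took 513 and 267 counts in the pancreas of control mice and 360, 418 and 237 in that of OA-AP mice. In adipose tissue they took 18368, 15156 and 30472 counts in the control group and 12104, 12696 and 13117 in the OA-AP group. The precision in the pancreas was therefore limited by small counts, with 3 counts equal to between 0.157 and 0.299 CPM, the unit of all levels given here. Such floors cover counting error only, since the reads carry no molecular identifiers. CPM are counts relative to the library total, which was scaled within each tissue with edgeR's TMM factors. The labels number the samples of each group and do not state that they are separate animals, so p-values measure only the spread between these samples, part of which may be technical.

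Tissue labels were checked against defining markers. Acinar markers summed to 551047 and 650053 CPM in the control pancreas and to 250807, 277416 and 332507 CPM in the OA-AP pancreas, where Ctrb1 was the most abundant of them on average. Adipocyte markers summed to between 26081 and 29650 CPM in the 6 adipose libraries, with Fabp4 the most abundant, and in the pancreas they summed to 28.9 and 42.4 CPM in the control group and to 48.8, 48.4 and 81.6 CPM in the OA-AP group, with Fabp4 again the most abundant and Adipoq at most 1 count in a library. Of this list Lipe was upregulated in the pancreas (log2 fold change 1.25, adjusted p 0.00174). In adipose tissue 2 of 6 were called, Plin1 downregulated (log2 fold change −1.47) and Lep upregulated (2.38). The call of Lep was lost in 4 alternative fits. Control replicate 2 of adipose tissue stood apart, because its acinar markers summed to 4740 CPM against 7.22 to 15.7 CPM in the other adipose libraries, with Ctrb1 at 1463 CPM. OA-AP replicate 3 of the pancreas stood apart too, with leukocyte markers at 105 CPM against 24.7 to 51.7 CPM in the other pancreas libraries, Lyz2 being the most abundant on average and S100a8 reaching 29.6 CPM there. The same library held 11 counts on the 4 mesothelial genes together, against 90 to 205 in the other pancreas libraries. OA-AP replicate 1 of adipose tissue differed from the other two OA-AP libraries in Acta2 and the mesothelial genes. Some of the results that rest on these libraries are given with and without them.

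Up- and downregulated genes were those called by edgeR's quasi-likelihood test over all genes of a tissue, with p-values adjusted after Benjamini and Hochberg below 0.05 and levels that differed 1.5-fold or more. Each of the 10 genes passed the filter on low counts in both tissues. In the pancreas 1 of the 10 was called, Pi16, where 29.8% of the 12884 tested genes were called. In adipose tissue 1 of the 10 was called, Dpp4, where 25.1% of 15839 tested genes were called. Both genes were downregulated, and both shares were below the background. The median log2 fold change of the 10 genes was −0.73 in the pancreas against 0.04 over all tested genes, and −0.08 in adipose tissue against −0.01. Library totals in place of TMM factors shifted the median of all tested genes by 0.71 in the pancreas and by −0.15 in adipose tissue. Lower levels in bulk tissue can reflect fewer cells of a type or less RNA per cell, which cannot be told apart here.

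**Figure D1:**
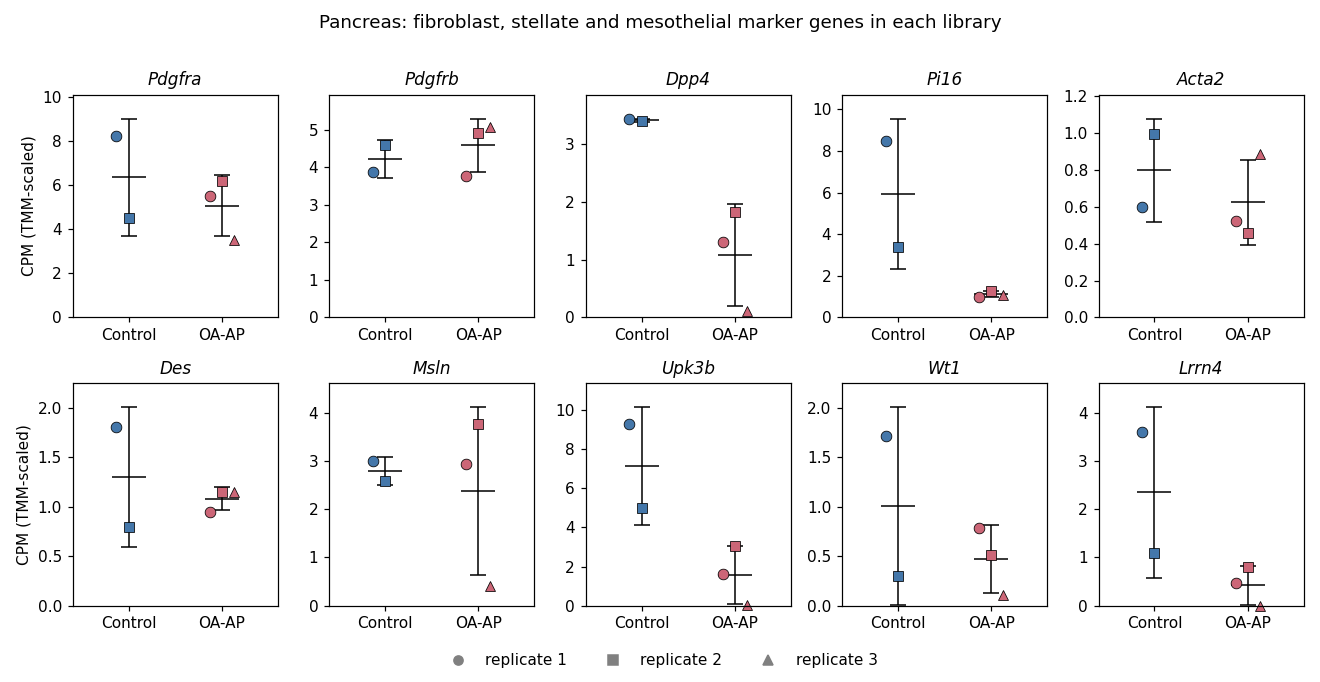
Pancreas. CPM (y axis, TMM-scaled) of each of the 10 genes in every library, with the mean and SD (bars, shortened at 0) of 2 control and 3 OA-AP libraries (x axis). Dpp4, Pi16, Upk3b and Lrrn4 lay lower in each OA-AP library than in either control library, and OA-AP replicate 3 (triangles) was the lowest library for Pdgfra, Dpp4, Msln, Upk3b, Wt1 and Lrrn4.

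Pdgfra (ENSMUSG00000029231), the receptor that marks fibroblasts and preadipocytes, was measured at 8.24 and 4.49 CPM in the control pancreas and at 5.51, 6.18 and 3.50 CPM in the OA-AP pancreas. The groups overlapped, and the highest level belonged to control replicate 1. On the log2 scale the OA-AP level differed by −0.34 (SE 0.34, adjusted p 0.471), and this was positive, 0.37, with library totals in place of TMM factors. In adipose tissue Pdgfra was measured at 53.7, 78.3 and 63.1 CPM in the control group and at 60.1, 85.3 and 109.7 CPM in the OA-AP group. Of the OA-AP libraries, replicates 2 and 3 lay above every control library and replicate 1 inside the control range. This difference of 0.39 on the log2 scale (SE 0.24) did not pass the test (adjusted p 0.232).

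Pdgfrb (ENSMUSG00000024620), the receptor of pericytes and stellate cells, stood at 3.86 and 4.59 CPM in control pancreas libraries and at 3.78, 4.92 and 5.07 CPM in OA-AP libraries. These groups overlapped, with the control values inside the OA-AP range. Its log2 fold change was 0.12 (SE 0.26, adjusted p 0.743), but with library totals in place of TMM factors it was 0.83 and Pdgfrb was called upregulated (adjusted p 0.0327). Without OA-AP replicate 3 it was −0.0029 (adjusted p 0.995). In adipose tissue Pdgfrb stood at 92.7, 93.5 and 99.8 CPM in the control group and at 102, 116 and 121 CPM in the OA-AP group. Every OA-AP library was above every control library, by a small margin. This log2 fold change of 0.24 (SE 0.10) did not pass the test (adjusted p 0.0885), and without OA-AP replicate 1 it was 0.32 with an adjusted p of 0.0484, at a fold change still below the required one.

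The 4 PDGF ligands were read beside the receptors. In the pancreas 1 of 4 was upregulated and 1 downregulated, and in adipose tissue 1 of 4 was downregulated. Pdgfa, a ligand of PDGF receptor alpha, was measured at 14.2 and 18.2 CPM in the control pancreas and at 52.7, 64.2 and 61.6 CPM in the OA-AP pancreas, without overlap. It was upregulated by 1.88 on the log2 scale (SE 0.17, adjusted p 0.000285), and by 2.59 with library totals. Pdgfd, a ligand of PDGF receptor beta, was measured at 2.49 and 3.19 CPM in the control pancreas and at 0.630, 1.43 and 0.784 CPM in the OA-AP pancreas. Its log2 fold change was −1.58 (adjusted p 0.0272), and the call was lost with library totals (−0.87, adjusted p 0.148), without control replicate 1 (−1.74, adjusted p 0.0975), without control replicate 2 (−1.39, adjusted p 0.175) and without OA-AP replicate 1 (−1.37, adjusted p 0.0825). In adipose tissue Pdgfd stood at 16.3, 22.2 and 24.5 CPM in the control group and at 12.2, 13.0 and 11.01 CPM in the OA-AP group. It was downregulated there in each OA-AP library relative to each control library, with a log2 fold change of −0.80 (SE 0.17, adjusted p 0.0103).

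Dpp4 (ENSMUSG00000035000, chr2:62330073-62412231 on GRCm38, minus strand) encodes a membrane peptidase of progenitor fibroblasts, which T cells and some epithelia also carry. In adipose tissue it was measured at 51.5, 52.9 and 89.0 CPM in the control group and at 26.8, 16.7 and 14.5 CPM in the OA-AP group. All 3 OA-AP libraries were below all 3 control libraries, and control replicate 3 was the highest. Dpp4 was downregulated with a log2 fold change of −1.74 (SE 0.31, adjusted p 0.00668), which is 0.300 times the control level. It was called in each fit that left out 1 library, with log2 fold changes from −2.04 without OA-AP replicate 1 to −1.42 without control replicate 3, and the value without control replicate 2, the library with acinar RNA, was −1.86 (adjusted p 0.0129). DESeq2 gave −1.74 with an adjusted p of 1.01e-07, the smallest over the alternatives, where the largest was 0.0269. An antisense transcript, Gm13561, shares 232 exon bases with Dpp4 and had at most 9 counts in an adipose library. Leukocyte markers changed in adipose tissue too, where 4 of 10 were upregulated, Cd68, Itgam, S100a8 and S100a9, and 3 downregulated, Cd3e, Cd79a and Csf1r. Itgam was higher by 1.24 on the log2 scale (adjusted p 0.000537) and S100a8 by 4.65 (adjusted p 0.000220). Cd3e, a T cell marker, was at 0.959, 1.48 and 0.953 CPM in the control group and at 0.415, 0.433 and 0.657 CPM in the OA-AP group (log2 fold change −1.16, adjusted p 0.0308). The call of Cd3e was lost in 5 fits that left out 1 library, with the replicate block and with DESeq2 (adjusted p 0.0556 to 0.0921), and those of Cd68 and Cd79a in several. The part of leukocytes in the level of Dpp4 was not tested.

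In the pancreas Dpp4 stood at 3.43 and 3.39 CPM in the control group and at 1.31, 1.83 and 0.105 CPM in the OA-AP group. The groups did not overlap, and OA-AP replicate 3, with 2 counts, was far below the other two OA-AP libraries. The log2 fold change of −1.66 (SE 0.78) did not pass the test (adjusted p 0.142). Without OA-AP replicate 3 the difference was smaller, −1.17 (SE 0.35), and passed it (adjusted p 0.0149). The direction was negative in each fit that tested Dpp4, library totals included (−0.92), and adjusted p-values over the alternatives ran from 0.00308 to 0.383.

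Pi16 (ENSMUSG00000024011, chr17:29318877-29329413, plus strand) encodes a secreted or membrane-bound peptidase inhibitor that marks progenitor fibroblasts around vessels. In the pancreas it was measured at 8.50 and 3.39 CPM in the control group, from 99 and 34 counts, and at 0.998, 1.26 and 1.10 CPM in the OA-AP group, from 19, 22 and 21 counts. The OA-AP libraries were close to each other and all below both control libraries, of which replicate 1 was much the higher. Pi16 was downregulated with a log2 fold change of −2.41 (SE 0.42, adjusted p 0.00394), which is 0.188 times the control level. The value was −1.74 with library totals (adjusted p 0.00920), −2.45 with DESeq2 (adjusted p 1.18e-05) and −2.46 without OA-AP replicate 3 (adjusted p 0.000447), and Pi16 was called in each. Without control replicate 1 it was −1.59 and no longer called (adjusted p 0.0651), the largest adjusted p over the alternatives, from a fit in which the lone control library is assumed to vary like the OA-AP libraries. An antisense gene of GENCODE M21, AC162182.1, shares 222 exon bases with the Pi16 of that release, which has other ends (29317680-29330593) than the Pi16 counted, and is in neither count table. Of 6 endothelial markers 2 were called in the pancreas, where 29.8% of all tested genes were called. Emcn (−1.59, adjusted p 0.0211) and Kdr (−0.76, adjusted p 0.0459) were downregulated, and several alternatives lost each call. The part of vessels in the level of Pi16 was not tested.

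In adipose tissue Pi16 stood at 16.6, 23.7 and 27.4 CPM in the control group and at 20.5, 40.4 and 23.6 CPM in the OA-AP group. The groups overlapped, and OA-AP replicate 2 was the highest library. The log2 fold change of 0.32 (SE 0.29, adjusted p 0.428) did not pass the test and was −0.031 without that library.

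Other markers of progenitor fibroblasts moved in both directions. Of 16 in the list, 13 were tested in the pancreas, where 2 were upregulated, Dact2 and Limch1, and 4 downregulated, Cd34, Fbln2, Sema3c and Thy1. All 16 were tested in adipose tissue, where 1 was upregulated and 6 downregulated. Dact2 was lower in control adipose tissue than in control pancreas (0.254-fold), whereas 12 of the 16 were higher. Sema3c was downregulated in the pancreas with a log2 fold change of −1.18 (adjusted p 0.00660), a call lost with library totals (−0.48, adjusted p 0.202) and without control replicate 1 (−0.93, adjusted p 0.0926). Dact2 was upregulated in the pancreas, from 2.75 and 4.59 CPM to 9.71, 7.72 and 9.83 CPM (log2 fold change 1.32, adjusted p 0.00797), a call lost without control replicate 1 (0.99, adjusted p 0.0751). It was downregulated in adipose tissue, from 3.03, 3.73 and 4.12 CPM to 0.674, 0.865 and 0.354 CPM (log2 fold change −2.51, adjusted p 0.00198), and Opcml likewise with a log2 fold change of −1.77 (adjusted p 0.00222). The summed level of the list was 869, 983 and 1060.0 CPM in control adipose libraries and 981, 1049 and 1034 CPM in OA-AP libraries, so the groups overlapped. Ly6a was its most abundant gene and the 1 upregulated there, from 155, 283 and 174 CPM to 364, 341 and 375 CPM. The sum therefore does not describe the 6 downregulated genes. Among the 10 markers of committed preadipocytes and regulatory fibroblasts, 1 was upregulated and 4 downregulated in adipose tissue, and 0 of 9 tested were upregulated and 1 downregulated in the pancreas. Gdf10 in adipose tissue was at 56.8, 38.5 and 36.6 CPM in the control group and at 5.49, 11.4 and 7.73 CPM in the OA-AP group, a log2 fold change of −2.42 (adjusted p 0.00194).

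**Figure D2:**
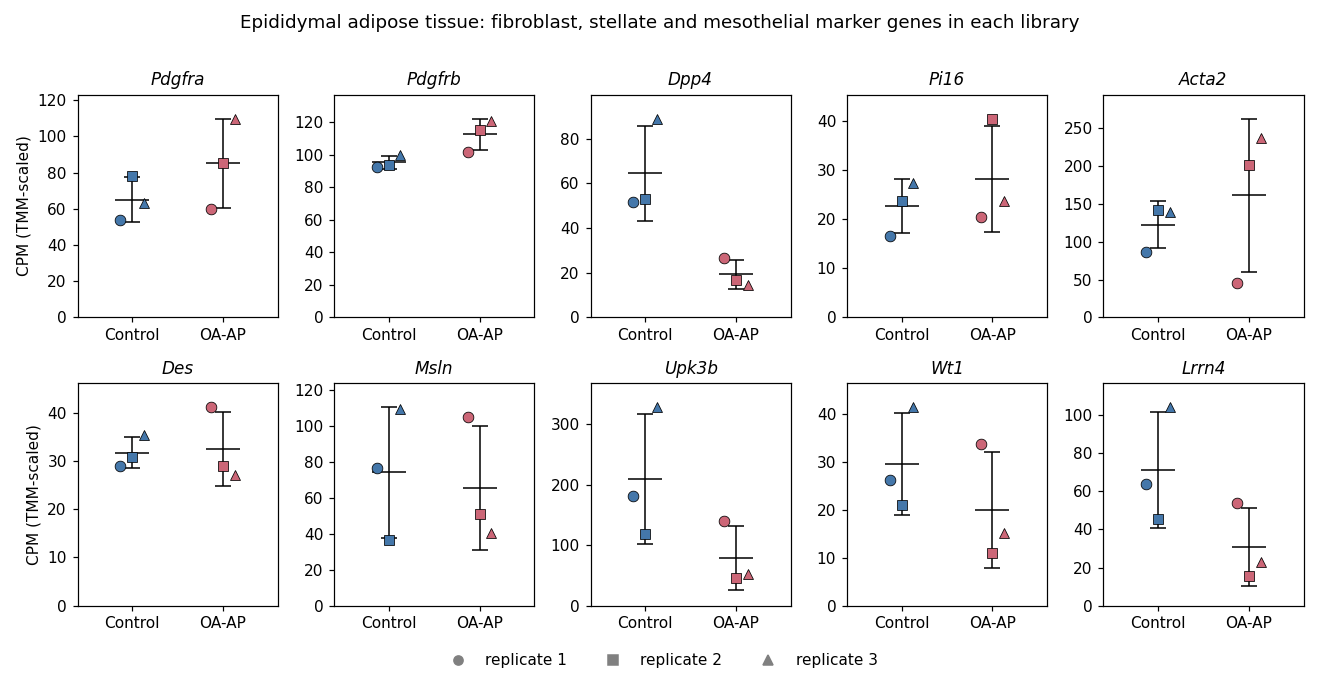
Epididymal adipose tissue. CPM (y axis, TMM-scaled) of each of the 10 genes in every library, with the mean and SD (bars) of 3 control and 3 OA-AP libraries (x axis). Dpp4 lay between 14.5 and 26.8 CPM in the OA-AP libraries, below all control libraries, and OA-AP replicate 1 (circles) was apart from the other OA-AP libraries for Acta2, Msln, Upk3b, Wt1 and Lrrn4.

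Acta2 (ENSMUSG00000035783) encodes the smooth muscle actin of vessel walls and activated stellate cells. It was scarce in the pancreas, with 7 and 10 counts in control libraries and 10, 8 and 17 counts in OA-AP libraries, equal to 0.601 and 0.997 CPM and to 0.525, 0.458 and 0.889 CPM. The groups overlapped, and the log2 fold change was −0.34 (SE 0.57, adjusted p 0.678), with the opposite sign, 0.36, under library totals. With at most 17 counts in a library, the SE was larger than the difference. In adipose tissue Acta2 was measured at 86.5, 142 and 139 CPM in the control group and at 45.5, 201 and 236 CPM in the OA-AP group. OA-AP replicate 1 was the lowest of all 6 libraries and the other two OA-AP libraries were the highest. With all libraries the log2 fold change was 0.39 (SE 0.55, adjusted p 0.605), and without OA-AP replicate 1 it was 0.84 (SE 0.23) and Acta2 was called upregulated (adjusted p 0.0367, the smallest over the alternatives, where the largest was 0.988).

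Des (ENSMUSG00000026208), the intermediate filament of muscle, pericytes and quiescent stellate cells, stood at 1.80 and 0.798 CPM in the control pancreas and at 0.945, 1.14 and 1.15 CPM in the OA-AP pancreas, from 8 to 22 counts a library. All OA-AP values lay between the control values. Its log2 fold change was −0.28 (SE 0.47, adjusted p 0.675), and 0.40 with library totals. In adipose tissue Des stood at 28.9, 30.9 and 35.3 CPM in the control group and at 41.2, 28.9 and 27.1 CPM in the OA-AP group. Here too the groups overlapped, with OA-AP replicate 1 the highest library, and the log2 fold change was 0.03 (SE 0.17, adjusted p 0.900). It was negative with library totals (−0.12), without OA-AP replicate 1 (−0.17) and without control replicate 1 (−0.022). An antisense transcript, Gm15179, shares 220 exon bases with Des and had at most 3 counts in a library.

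Related contractile, stellate and matrix genes give the setting of Acta2 and Des. Of 12 smooth muscle genes, 6 were tested in the pancreas and 3 of these were downregulated, and of 11 tested in adipose tissue 1 was upregulated and 2 were downregulated, where DESeq2 called 1 upregulated and 6 downregulated. Cald1 was at 228, 258 and 268 CPM in control adipose libraries and at 474, 395 and 618 CPM in OA-AP libraries, upregulated by 0.98 on the log2 scale (adjusted p 0.00613), whereas in the pancreas it was downregulated with a log2 fold change of −1.05 (adjusted p 0.00109), a call lost with library totals (−0.33, adjusted p 0.159). Myl9 was downregulated in adipose tissue with a log2 fold change of −1.42 (adjusted p 0.00696). The pericyte list had 0 of 5 tested genes called in the pancreas by edgeR, 0 by DESeq2 and 0 at an unadjusted p below 0.05, and in adipose tissue 1 of 9 upregulated and 3 downregulated, Mcam among the latter at −0.99 (adjusted p 0.00188). Of the 8 quiescent stellate and glial-type genes, 6 were tested in each tissue. Nes was upregulated in the pancreas with a log2 fold change of 1.42 (adjusted p 0.0254), a call lost without control replicate 1 (1.45, adjusted p 0.135) and without control replicate 2 (1.39, adjusted p 0.146), and it was downregulated in adipose tissue (−1.02, adjusted p 0.00375).

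Matrix genes of fibroblasts were downregulated in adipose tissue in 5 of 10 cases, Col1a1, Col1a2, Col3a1, Dcn and Lum, with none upregulated. The call of Lum was lost in 5 of the fits that left out 1 library, without a filter and with the replicate block (adjusted p 0.0541 to 0.156), and that of Col1a1 without control replicate 3 (adjusted p 0.05003). Dcn was at 1526, 1508 and 1786 CPM in the control group and at 862, 1005 and 691 CPM in the OA-AP group, a log2 fold change of −0.91 (adjusted p 0.00723). In the pancreas 1 of 9 tested matrix genes, Col5a1, was downregulated (2 by DESeq2), a call lost with library totals (−0.53, adjusted p 0.231) and without control replicate 1 (−1.28, adjusted p 0.0804) or 2 (−1.21, adjusted p 0.0954). Genes of activated fibroblasts were upregulated in 3 of 6 tested cases in the pancreas and in 5 of 10 in adipose tissue. In adipose tissue 2 were downregulated, Fap and Lrrc15. Lox was at 1.201 and 0.997 CPM in the control pancreas and at 12.8, 11.1 and 5.70 CPM in the OA-AP pancreas (log2 fold change 3.15, adjusted p 0.00174). Timp1 in adipose tissue was at 5.02, 3.81 and 5.11 CPM in the control group and at 278, 172 and 308 CPM in the OA-AP group (log2 fold change 5.76, adjusted p 0.000179). Acta2 and Des were thus not called in either tissue with all libraries while Lox, Loxl1 and Timp1 were upregulated in both, Loxl1 in adipose tissue with an adjusted p of 0.0160 that became 0.0646 without a filter and 0.0501 without control replicate 1.

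Msln (ENSMUSG00000063011) encodes mesothelin, a glycoprotein anchored in the membrane of mesothelial cells. In the pancreas it was measured at 3.003 and 2.59 CPM in the control group and at 2.94, 3.78 and 0.418 CPM in the OA-AP group. OA-AP replicate 3 was low and the other two OA-AP libraries were level with the control group or above it. The log2 fold change was −0.24 (SE 0.75, adjusted p 0.831), and it was positive without OA-AP replicate 3 (0.21) and with library totals (0.50). In adipose tissue Msln stood at 76.4, 36.4 and 109 CPM in the control group and at 105, 50.9 and 40.2 CPM in the OA-AP group. The groups overlapped over nearly their whole range, and the log2 fold change was −0.18 (SE 0.48, adjusted p 0.787), positive without control replicate 3 (0.22) and without OA-AP replicate 3 (0.075).

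Upk3b (ENSMUSG00000042985, chr5:136038496-136046487, plus strand), a uroplakin made by mesothelium and urothelium, was measured at 9.27 and 4.99 CPM in the control pancreas, from 108 and 50 counts, and at 1.63, 3.03 and 0.0523 CPM in the OA-AP pancreas, from 31, 53 and 1 counts. No OA-AP library reached the control range. With a log2 fold change of −2.19 (SE 0.98), Upk3b did not pass the test (adjusted p 0.141). Without OA-AP replicate 3 it was −1.68 (SE 0.35), and Upk3b was called downregulated (adjusted p 0.00221, the smallest over the alternatives, where the largest was 0.461). In adipose tissue Upk3b stood at 181, 118 and 329 CPM in the control group and at 139, 45.3 and 52.3 CPM in the OA-AP group. OA-AP replicate 1 lay inside the control range and the other two OA-AP libraries below it. The log2 fold change of −1.41 (SE 0.54) did not pass the test (adjusted p 0.0815), and without OA-AP replicate 1 it was −2.09 (SE 0.43) and passed it (adjusted p 0.0171, in a range up to 0.255).

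Wt1 (ENSMUSG00000016458) encodes a zinc finger transcription factor of mesothelium that progenitors of visceral fat also express. Its pancreas values were 1.72 and 0.299 CPM in the control group and 0.788, 0.515 and 0.105 CPM in the OA-AP group, from between 2 and 20 counts a library. The groups overlapped, since control replicate 2, with 3 counts, was below 2 of the OA-AP libraries. A log2 fold change of −1.12 was measured (SE 0.88, adjusted p 0.357), with the opposite sign, 0.64, without control replicate 1. In adipose tissue Wt1 was measured at 26.2, 20.97 and 41.5 CPM in the control group and at 33.6, 10.96 and 15.3 CPM in the OA-AP group. Again OA-AP replicate 1 lay inside the control range and the other two below it, and the log2 fold change was −0.57 (SE 0.44, adjusted p 0.348) with all libraries and −1.17 (adjusted p 0.0380, in a range up to 0.738) without replicate 1, where Wt1 was called downregulated.

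Lrrn4 (ENSMUSG00000043110, chr2:132868305-132880891, minus strand), a leucine-rich repeat membrane protein found in mesothelium and neurons, had 42 and 11 counts in the control pancreas and 9, 14 and 0 counts in the OA-AP pancreas. In CPM these were 3.60 and 1.10 against 0.473, 0.801 and 0, where a count of 0 allows a level of up to 0.157 CPM in OA-AP replicate 3. The groups did not overlap, although OA-AP replicate 2 was close to control replicate 2. A log2 fold change of −2.48 (SE 0.96) did not pass edgeR's test (adjusted p 0.0865), and Lrrn4 was called by DESeq2 (−2.52, adjusted p 0.0392) and by edgeR without OA-AP replicate 3 (−1.95, adjusted p 0.0118), while adjusted p-values over the alternatives ran from 0.000254 to 0.559. In adipose tissue Lrrn4 stood at 63.8, 45.2 and 104 CPM in the control group and at 53.8, 15.4 and 23.0 CPM in the OA-AP group. OA-AP replicate 1 was again inside the control range, and the log2 fold change was −1.21 (SE 0.50, adjusted p 0.103) with all libraries and −1.88 (SE 0.38, adjusted p 0.0167, in a range up to 0.293) without it.

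Summed over the 4 mesothelial genes, the level was 17.6 and 8.97 CPM in the control pancreas and 5.83, 8.12 and 0.575 CPM in the OA-AP pancreas. In adipose tissue the sum was 348, 221 and 584 CPM in the control group and 331, 122.6 and 131 CPM in the OA-AP group. Control libraries of adipose tissue therefore differed among themselves by more than 2 times. In the pancreas 4 of the 10 genes, Dpp4, Pi16, Upk3b and Lrrn4, had groups that did not overlap, where 62.3% of all tested genes had such groups and 29.8% were called. OA-AP replicate 3 of the pancreas and replicate 1 of adipose tissue stood apart by the values of these same genes, so calls gained without them show the weight of 1 library and add no support to a change. Leukocyte markers summed to 51.7 and 24.7 CPM in the control pancreas and to 39.6, 36.6 and 105 CPM in the OA-AP pancreas, the highest sum being in the library with the low mesothelial values, where S100a9 at 40.7 CPM and S100a8 at 29.6 CPM led and Lyz2 was at 20.3 CPM. Of 8 tested leukocyte markers 1 was called, Csf1r, which was downregulated (−1.16, adjusted p 0.0197), a call lost with library totals (−0.46, adjusted p 0.293), without control replicate 1 (−0.70, adjusted p 0.232) and without OA-AP replicate 1 (−1.18, adjusted p 0.0625). DESeq2 called 3 of these markers, Csf1r and also S100a8 and S100a9, both higher in OA-AP. Neither passed edgeR's test. The edgeR log2 fold change was 5.19 for S100a8 (SE 2.28, adjusted p 0.156) and 5.53 for S100a9 (SE 2.51, adjusted p 0.166). Values of S100a8 and S100a9 without OA-AP replicate 3 are not given. The part of these markers in the result was not tested.

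**Figure D3:**
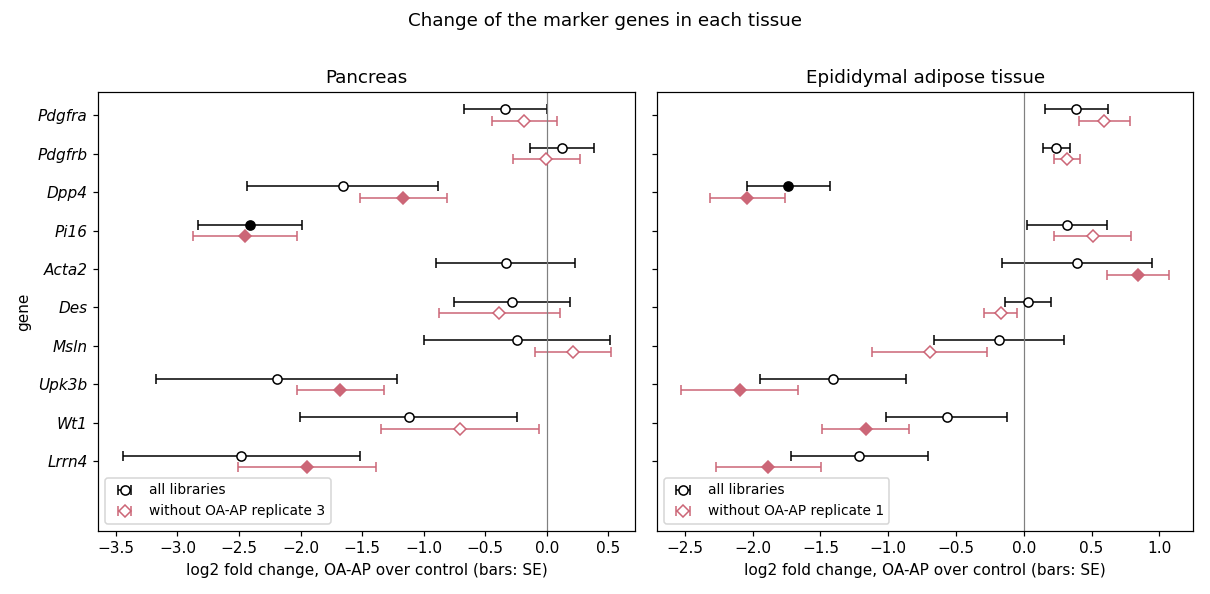
Log2 fold change of OA-AP over control (x axis) of the 10 genes (y axis) in the pancreas and in adipose tissue, with SE bars, for all libraries (circles) and without OA-AP replicate 3 of the pancreas or replicate 1 of adipose tissue (diamonds). Filled symbols mark genes called. With library totals in place of TMM factors the pancreas values of Pdgfra, Acta2, Des and Msln and the adipose value of Des take the opposite sign. Acta2 has no diamond in the pancreas, where it failed the filter. The libraries left out were singled out by values of the genes shown.

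Other mesothelial markers were read from a list of 16, of which Krt7 and Krt19 are duct markers as well. In the pancreas 13 were tested, and 3 were upregulated, Krt8, Krt18 and Aldh1a2, and 2 downregulated, Gpm6a and Muc16. Without control replicate 2 Krt18 (1.67, adjusted p 0.0550) and Aldh1a2 (1.63, adjusted p 0.0581) lost their calls, and Krt8, Gpm6a and Muc16 lost theirs without control replicate 1 or 2 (adjusted p 0.0829 to 0.284) and in other alternatives. The summed level of the list in the pancreas, 247 and 213 CPM in the control group and 705, 520 and 1223 CPM in the OA-AP group, was led by Krt18 in the control libraries and by Krt8 in the OA-AP libraries, keratins of ductal and acinar cells too. In adipose tissue 15 were tested, with none upregulated and 2 downregulated. Rspo1 was at 30.9, 26.7 and 47.4 CPM in the control group and at 14.5, 5.77 and 7.53 CPM in the OA-AP group (log2 fold change −1.92, adjusted p 0.00976). Muc16, whose symbol has a different Ensembl ID in each table and which the joint fit could not test, was at 14.5, 8.77 and 26.4 CPM in the control group and at 7.46, 2.36 and 3.08 CPM in the OA-AP group (log2 fold change −1.95, adjusted p 0.0325), and its call was lost without control replicate 1 or 3 and without OA-AP replicate 2 or 3, with adjusted p-values from 0.0656 to 0.0943, and without a filter on low counts (adjusted p 0.131). The summed level in adipose tissue, 691, 568 and 1003 CPM against 861, 420 and 455 CPM, again had OA-AP replicate 1 inside the control range. Of the partners and targets of Wt1, 1 of 4 tested in the pancreas, Gata4, was downregulated (−0.81, adjusted p 0.00326), a call lost with library totals (−0.10, adjusted p 0.660). In control adipose tissue Gata4 stood at 0.0040 times its control pancreas level, whereas Msln, Upk3b, Wt1 and Lrrn4 were higher in adipose tissue. Of these partners and targets 0 of 6 were called in adipose tissue by edgeR and 0 by DESeq2, with 1 at an unadjusted p below 0.05.

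Whether a change differed between the tissues was tested as a tissue by condition term over 17046 genes and 11 libraries. The labels do not say whether libraries of both tissues come from the same mice, and the fit treats them as separate. Of the 10 genes 1 passed at an adjusted p under 0.05, Pi16, where 21.3% of tested genes passed. The change of Pi16 was higher by 2.74 on the log2 scale in adipose tissue than in the pancreas (SE 0.56, adjusted p 0.00585). It was 1.92 with library totals (adjusted p 0.0231), and without control replicate 1 of the pancreas it was 1.90 and did not pass (adjusted p 0.0519). Dpp4 had a difference of −0.08 between tissues (SE 0.81, adjusted p 0.992), so its call in adipose tissue alone does not show that the tissues differed. Upk3b had a difference of 0.79 (SE 1.14, adjusted p 0.691) and Lrrn4 of 1.30 (SE 1.22, adjusted p 0.509), and at these standard errors a difference of either sign was compatible with the data. With library totals Pdgfrb passed as well, with the opposite sign (−0.73, adjusted p 0.0106).

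Control adipose tissue and control pancreas were compared in the same fit, where tissue and dissection cannot be told apart. In this contrast 9 of the 10 genes were called and all 9 were higher in adipose tissue, where 55.5% of tested genes were called in either direction. Acta2 was 39.5-fold higher, Lrrn4 7.51-fold, Upk3b 7.41-fold, Wt1 7.18-fold, Msln 6.71-fold, Des 6.07-fold, Pdgfrb 5.76-fold, Dpp4 4.81-fold and Pdgfra 2.57-fold. Pi16 had a ratio of 0.955 (adjusted p 0.894), and with library totals, which shifted the median of all tested genes by 2.45, it was called higher in adipose tissue as well (log2 2.38, adjusted p 0.000277). On a common scale for both tissues Pi16 averaged 12.5 ± 7.71 CPM (SD, n = 2) in control pancreas and 12.0 ± 2.91 CPM (SD, n = 3) in control adipose tissue. In OA-AP it averaged 2.38 ± 0.281 CPM in the pancreas and 15.2 ± 6.04 CPM in adipose tissue (SD, n = 3 each). Without control replicate 2 of the pancreas, Pdgfra, Msln, Upk3b, Wt1 and Lrrn4 lost their calls in this contrast, while Acta2, Des, Dpp4 and Pdgfrb kept theirs. That fit leaves 1 control library of the pancreas, and fewer of all tested genes were called in it too. Without control replicate 1 of the pancreas Msln lost its call (2.90, adjusted p 0.0650).

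Levels of different genes were compared as CPM per kilobase of the deposited gene length. In the control pancreas the order was Upk3b at 2.02, Pi16 at 1.49, Msln at 1.32, Pdgfrb at 0.771, Pdgfra at 0.635, Lrrn4 at 0.633, Dpp4 at 0.540, Acta2 at 0.449, Des at 0.346 and Wt1 at 0.163 CPM per kilobase. Only the step from Msln to Pdgfrb was larger than the SD of both neighbours. In control adipose tissue the order was Acta2 at 68.7, Upk3b at 59.4, Msln at 35.0, Lrrn4 at 19.1, Pdgfrb at 17.4, Dpp4 at 10.2, Des at 8.44, Pdgfra at 6.48, Pi16 at 5.67 and Wt1 at 4.77 CPM per kilobase. There the steps from Pdgfrb to Dpp4 and from Des to Pdgfra exceeded the SD of both neighbours, and the other steps did not. By group mean, Acta2 thus stood at the top in adipose tissue and eighth in the pancreas, and Wt1 was the lowest in both. In adipose tissue neither the step from Acta2 to Upk3b nor that from Pi16 to Wt1 exceeded the SD of both neighbours.

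Likeness between genes was described by Pearson's r of log2 CPM over the 11 libraries, which share tissue and group, so values centred on each group's mean are given beside it. Upk3b and Lrrn4 were each the nearest gene to the other among 17046 genes over the 11 libraries (r 0.995), and their centred r was 0.985. Centred r was 0.975 between Upk3b and Dpp4, 0.966 between Upk3b and Msln and 0.820 between Upk3b and Wt1. These values depend in part on OA-AP replicate 3 of the pancreas, and without it, over 10 libraries, they were 0.946 for Lrrn4, 0.877 for Dpp4, 0.895 for Msln and 0.726 for Wt1, a comparison added after the values were seen. Within the 6 adipose libraries alone, centred r with Upk3b was 0.980 for Lrrn4, 0.976 for Wt1, 0.937 for Msln and 0.914 for Dpp4. Dpp4 itself, without OA-AP replicate 3 of the pancreas, had a centred r of 0.843 with Msln, 0.713 with Lrrn4, 0.529 with Des and 0.454 with Wt1, and within the adipose libraries its highest was with Des (0.928). Pi16, the other progenitor marker, had a centred r of 0.06 with Upk3b and 0.04 with Dpp4 over the 11 libraries. Over the 11 libraries the genes nearest to Dpp4 were Nkain4 (r 0.987), Upk3b (r 0.985) and Chst4 (r 0.983), of which Nkain4 was in the list of other mesothelial markers. After centring they were Ndufa7 (r 0.990), Psip1 (r 0.988) and Gapdhs (r 0.986), and those nearest to Upk3b were Hdac10 (r 0.992), Tarsl2 (r 0.985) and Lrrn4. The centred values nearest to Lrrn4 were those of Tmem119 (r 0.991) and the mesothelial marker Rspo1 (r 0.989), and the third was Upk3b. Msln was nearest to Gjb5 over the 11 libraries (r 0.990), Wt1 to Fgf1 (r 0.990) and Des to Twist1 (r 0.993), and after centring to Glns-ps1 (r 0.988), Lgals7 (r 0.973) and Styk1 (r 0.976).

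The promoters of Dpp4, Upk3b and Lrrn4, the genes whose values moved together and whose pancreas groups did not overlap, are printed here as 300 bases around the start of each gene. Sequences are from RefSeq on GRCm38.p6, chr2:62412182-62412481 on the minus strand for Dpp4, chr5:136038246-136038545 on the plus strand for Upk3b and chr2:132880813-132881112 on the minus strand for Lrrn4, each written 5′ to 3′ on the strand of the gene. Capitals mark matches to the MCAT motif GGAATG or, on the other strand, its reverse complement.
Dpp4: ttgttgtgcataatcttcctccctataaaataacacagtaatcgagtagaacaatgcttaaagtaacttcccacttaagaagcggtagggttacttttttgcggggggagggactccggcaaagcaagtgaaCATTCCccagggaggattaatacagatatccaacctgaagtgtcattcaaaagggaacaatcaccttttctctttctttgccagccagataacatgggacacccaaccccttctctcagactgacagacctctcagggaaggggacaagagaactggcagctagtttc
Upk3b: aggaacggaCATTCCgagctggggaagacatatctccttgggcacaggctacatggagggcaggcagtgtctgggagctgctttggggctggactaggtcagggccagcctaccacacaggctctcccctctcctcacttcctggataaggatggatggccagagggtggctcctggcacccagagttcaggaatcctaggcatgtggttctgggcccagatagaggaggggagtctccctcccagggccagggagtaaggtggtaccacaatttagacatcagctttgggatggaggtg
Lrrn4: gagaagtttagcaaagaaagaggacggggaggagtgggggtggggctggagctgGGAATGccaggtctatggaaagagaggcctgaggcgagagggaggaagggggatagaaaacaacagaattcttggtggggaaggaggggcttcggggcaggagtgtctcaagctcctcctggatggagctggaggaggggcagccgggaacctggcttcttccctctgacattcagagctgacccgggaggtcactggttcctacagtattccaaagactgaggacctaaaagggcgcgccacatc
Promoters were listed for 7 of the 10 genes, Pdgfra, Dpp4, Pi16, Acta2, Des, Upk3b and Lrrn4, while Pdgfrb, Msln and Wt1 had no entry. MCAT was chosen after these sequences had been seen and was searched on both strands, as were the other motifs. It was found in 4 of the 7, Acta2, Dpp4, Lrrn4 and Upk3b, against 14.7% of 32817 promoters of this length. TATAAA or TATATA was found in Acta2 and Dpp4, against 17.1% of promoters, and the WT1 core GTGGGAG in Acta2 alone, against 9.73%. The CArG box, searched as CC, 6 bases of A or T and GG with no mismatch allowed, was found in 0 of the 7, against 1.63% of promoters. A match describes the letters in this window only.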

How the data were processed

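RNA sequencing counts of 5 pancreas and 6 epididymal adipose libraries were used. The authors trimmed reads with Trim Galore 0.6.6, checked them with fastp 0.20.1, mapped them to GRCm38 with STAR 2.7.4a and counted them with featureCounts 2.0.1. The authors deposited unnormalized counts per gene and, in the pancreas table, a deposited gene length in bases, used here for CPM per kilobase alone. The sources used here do not give the annotation release or the strand setting. Samples were grouped by their labels, and 0 columns of values were without a sample.

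In R 4.3.3, low counts were filtered by filterByExpr of edgeR 4.0.16 (minimum count 10) and libraries were scaled with TMM. Each tissue was tested apart with the quasi-likelihood test (robust, two-sided), and the tissue contrasts were tested in a joint fit of all 11 libraries. P-values were Benjamini-Hochberg adjusted over all tested genes. Each SE was derived from the F statistic, as the size of the change over its root. Log2 CPM for likeness had a prior count of 2. The fits were tested on simulated data, from which no value is reported here.

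Genes named were the 10 members, in each companion list and tissue up to 2 called genes with the smallest p, and up to 3 nearest genes per member. Some of these are not reported, and Gpm6a, Muc16, Krt8, Timp1, S100a8, S100a9 and Lyz2 in the pancreas and Col1a1, Col3a1, Lum, Loxl1, Cd68, S100a9, Cd3e, Cd79a and Csf1r in adipose tissue were named after their values were seen. Limch1, Cd34, Fbln2 and Thy1 in the pancreas and Fap, Lrrc15 and Ly6a in adipose tissue were also named after their values were seen. Their values under the alternatives are not given. Members and lists were chosen with earlier results of these data known. Alternatives were DESeq2 1.42.0, its size factors in edgeR, library totals, TMM factors without acinar genes, no filter or 10 counts or more in all samples, a minimum fold of 2 or no minimum, each replicate left out, and the replicate block.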

Additional observations from a re-analysis of the deposited data

Results flagged for a closer look

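The test of the tissue by condition term, which asks whether the OA-AP change differs between adipose tissue and the pancreas, passed for 14 of 61 genes tried, or 23%, against 21.3% of all tested genes. The genes tried were the 10 markers and the companion genes chosen for naming, in part after their values were seen. Fap, Lrrc15, Cd34, Fbln2, Thy1, Limch1 and Ly6a, named elsewhere, were not among them. The values are the log2 change in adipose tissue minus that in the pancreas, and the median over all 17046 tested genes was −0.06, shifted by −0.82 with library totals. Among the 10 marker genes it was Pi16, at 2.74 (adjusted p 0.00585). Higher changes in adipose tissue were also found for Sema3c (1.58, adjusted p 0.0106), Synpo2 (2.93, adjusted p 0.00675), Cald1 (2.01, adjusted p 0.000145), Vim (1.18, adjusted p 0.00842) and Emcn (1.66, adjusted p 0.00763). Lower changes in adipose tissue were found for Pdgfa (−1.60, adjusted p 0.000177), Dact2 (−3.83, adjusted p 0.000167), Mcam (−1.50, adjusted p 0.0195), Nes (−2.45, adjusted p 0.00219), Aldh1a2 (−1.39, adjusted p 0.0466), Lipe (−1.71, adjusted p 0.00275), Col3a1 (−1.39, adjusted p 0.00779) and Cd79a (−4.46, adjusted p 0.0488). Cd79a had 0 to 8 counts in a pancreas library and failed the filter of that tissue, and its adipose log2 fold change ran from −2.99 to −1.66 over the alternatives.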

How the results depend on the processing

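The number of genes called among the 10 stayed within 1.5 times its value in 53 of 64 alternatives. In the pancreas it was 1 with all choices as reported. It was 2 with library totals (Pdgfrb, Pi16), 3 without a filter (Dpp4, Lrrn4, Pi16) and 2 with DESeq2 (Lrrn4, Pi16). Of all tested genes 49.3%, 19% and 29.7% were called in these, against 29.8%. The number was 4 without OA-AP replicate 3, where 33.9% of all tested genes were called. Pi16 lost its call without control replicate 1, where fewer of all tested genes were called too. In adipose tissue it was 1 to 5 with a replicate left out, where 17.8% to 27.6% of all tested genes were called against 25.1%. The 5 were called without OA-AP replicate 1, where 22.3% of all tested genes were called. For the tissue by condition term it was 2 with library totals, where 39.1% of all tested genes passed against 21.3%. With an adipose or OA-AP library left out it was 1 (17.1% to 22.7% of all tested genes). Pi16 did not pass without control replicate 1 of the pancreas. In the control tissue contrast it was 2 with at least 10 counts in every sample, where 3 genes were tested. There 57.9% of all tested genes were called, against 55.5% with all choices as reported. With an adipose or OA-AP library left out it was 9 (53.6% to 57.1% of all tested genes). It was lower without a pancreas control library, a fit that leaves 1. The causes were not tested, and some of these alternatives use fewer genes or samples.

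Of 617 log2 values of single genes under the alternatives, 552 kept their sign and their side of the threshold, 13 passed it in addition, 9 no longer passed and 43 changed sign. With library totals the new values were, in the pancreas, 0.37 for Pdgfra, 0.36 for Acta2, 0.40 for Des and 0.50 for Msln, and in adipose tissue −0.12 for Des. For the tissue by condition term they were −0.12 for Pdgfra, −0.73 for Pdgfrb, −0.11 for Acta2, −0.51 for Des, −0.82 for Msln, −0.072 for Upk3b and −0.27 for Wt1. For Pi16 in the control tissue contrast the values were 2.38 with library totals, 0.048 without a filter and 0.082 with at least 10 counts in every sample.

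With a replicate left out, the log2 fold changes that took both signs ran, in the pancreas, from −0.70 to 0.18 for Pdgfra, from −0.0029 to 0.25 for Pdgfrb, from −0.66 to 0.060 for Acta2, from −0.73 to 0.44 for Des, from −0.74 to 0.21 for Msln and from −1.86 to 0.64 for Wt1. In adipose tissue they ran from −0.031 to 0.51 for Pi16, from −0.17 to 0.15 for Des and from −0.69 to 0.22 for Msln. For the tissue by condition term they ran from −0.021 to 0.22 for Pdgfrb, from −0.63 to 0.51 for Dpp4, from −0.43 to 0.77 for Des, from −0.49 to 0.54 for Msln and from −1.24 to 1.30 for Wt1, and in the control tissue contrast from −0.55 to 0.80 for Pi16. None of these genes was called in the comparison concerned with all libraries.

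The replicate block takes equal replicate numbers as pairs. Deviations of same-numbered samples had r of 0.02, 0.02 and −0.16 between adipose control and OA-AP samples. Between OA-AP samples of the pancreas and adipose tissue r was −0.012, 0.050 and 0.090. Differently numbered samples had r from −0.19 to 0.25 in the former comparison and from −0.079 to 0.049 in the latter. Such r cannot show whether samples with the same number come from the same mouse. The labels do not say whether these come from the same mice. With the block 3 genes were called in the pancreas (Dpp4, Pi16, Upk3b), where 31.8% of all tested genes were called against 29.8%. Msln there was 0.25, and Dpp4 in the tissue by condition term was 0.34. In the control tissue contrast Upk3b lost its call with the block (2.44, adjusted p 0.0716).

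Of 865 values of companion genes 753 were as reported and 112 lost their call, with 0 changes of sign. The filter of at least 10 counts in every sample left 3 of the 10 genes in the pancreas. Leaving out a pancreas control library leaves 1, which is assumed to vary like the other groups. With 2 control libraries and at most 108 counts a gene in the pancreas, the log2 differences of Acta2 and Des there were smaller than their SE of 0.57 and 0.47.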

Other observations

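Epididymis markers had 0 counts in every pancreas library and summed to at most 0.0738 CPM in adipose tissue, all from Lcn8 in control replicate 1. Skeletal muscle markers summed to 7.68, 16.2 and 33.3 CPM in control adipose libraries and to 24.1, 152 and 73.0 CPM in OA-AP libraries, most of it from Acta1 in each, and Myh4 was at 0 in all of them. Of the 3 muscle markers tested there 1 was called, Mylpf, which was downregulated (log2 fold change −1.65, adjusted p 0.0111). DESeq2 called 2, Mylpf and also Acta1, which was higher in OA-AP.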
